A study of Drosophila melanogaster with 3 samples.

Results

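The genes described here encode the proteins of the mitochondrial ribosome of Drosophila melanogaster. The members are the protein-coding genes of the Ensembl annotation whose symbols start with mRpL (large subunit) or mRpS (small subunit), and each gene was taken by its symbol and not by a measured value. The rule found 73 genes among 13945 protein-coding genes, 47 for the large and 26 for the small subunit. Binding was measured by chromatin immunoprecipitation with sequencing (ChIP-seq), assayed as for a transcription factor, of the protein encoded by CG8944. The flies carried a stably expressed transgene that joins green fluorescent protein (GFP) to the C terminus of CG8944, and an antibody to GFP was used for the precipitation. The material was whole embryos, male and female pooled, collected at 0 to 24 h, in 3 biological replicates of this line. They form 1 group with no second genotype, stage or treatment, so no conditions could be compared. Values from whole embryos average over all cell types, and binding of the untagged protein was not measured.

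Mitochondrial ribosomes translate the few proteins encoded in mitochondrial DNA, which are subunits of the respiratory chain and the ATP synthase. Their ribosomal RNA is transcribed in the mitochondrion, whereas all of the genes described here lie in the nucleus, and their products are imported after translation in the cytoplasm. Some have counterparts in bacterial ribosomes and others are found only in mitochondria. In the compact fly genome many genes with housekeeping roles start back to back with a neighbour on the other strand, so that a single stretch of DNA serves as promoter for both genes. Such a pair is called head-to-head below, and its other gene the partner.

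The data were the authors' peak lists on the dm6 build. The relaxed lists of replicates 1, 2 and 3 held 30000, 30000 and 27393 entries, the relaxed list of the pooled replicates held 23886, and 3511 peaks had passed the authors' irreproducible discovery rate threshold and are called reproducible. Each entry has a summit, the position of its highest signal, and a signal value set by the authors' peak caller on a scale that is not stated, so signals and ranks (rank 1 is the strongest entry) are read within 1 list only. Read depth is unknown because the lists hold no counts. A gene was called occupied when the summit of a reproducible peak lay within 500 bp of one of its annotated transcription start sites (TSSs). For the spread between replicates, the 3511 strongest entries of each replicate were used in the same way.

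The sequences under the summits of 8 leading occupied genes are shown first, since they are the sites with the strongest signal on the arms 2L, 3L and 3R. Each runs 5′ to 3′ on the strand of the named gene, and covers 50 bases on either side of the summit unless trimmed to hold at most 30 bases of an annotated UTR (mRpL23 and mRpL47). Capitals mark matches to the motifs spelled out further on, here the E-box CAGCTG, the longer word with the core CGATA, and 6-mers made mostly of A and T, on either strand. The pattern of CTTT among pyrimidines is not marked, and a match that lies in trimmed bases, as that to Ohler motif 7 at mRpL47, is not shown. The sequence under mRpS23 has no capitals.
mRpS10, chr3R:15229458-15229558 (plus strand): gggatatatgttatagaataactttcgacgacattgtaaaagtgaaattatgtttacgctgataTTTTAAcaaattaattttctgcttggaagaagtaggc
mRpS23, chr2L:13835392-13835492 (minus strand): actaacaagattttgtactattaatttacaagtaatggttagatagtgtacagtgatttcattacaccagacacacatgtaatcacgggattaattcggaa
mRpL23, chr3L:2373565-2373626 (minus strand): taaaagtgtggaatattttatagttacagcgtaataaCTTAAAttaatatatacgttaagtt
mRpL4, chr2L:16329188-16329288 (minus strand): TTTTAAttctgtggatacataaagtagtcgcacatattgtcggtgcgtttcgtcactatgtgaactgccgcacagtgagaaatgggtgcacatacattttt
mRpL24, chr2L:4945498-4945598 (minus strand): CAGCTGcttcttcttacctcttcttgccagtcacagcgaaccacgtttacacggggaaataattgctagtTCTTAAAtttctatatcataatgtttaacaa
mRpL32, chr3R:31252699-31252799 (plus strand): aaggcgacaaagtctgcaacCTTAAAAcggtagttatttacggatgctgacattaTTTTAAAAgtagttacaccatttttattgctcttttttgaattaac
mRpS2, chr2L:4850553-4850653 (minus strand): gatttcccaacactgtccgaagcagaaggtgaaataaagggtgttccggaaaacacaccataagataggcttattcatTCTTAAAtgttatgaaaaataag
mRpL47, chr3R:9515959-9516036 (minus strand): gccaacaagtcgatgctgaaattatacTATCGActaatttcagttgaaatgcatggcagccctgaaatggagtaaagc
These stretches were mostly rich in A and T. The share of G and C in the 101 bases at the summit was 29.7% at mRpS10, 31.7% at mRpS23, 22.8% at mRpL23, 40.6% at mRpL4, 37.6% at mRpL24, 31.7% at mRpL32, 36.6% at mRpS2 and 44.6% at mRpL47. All of these summits lay between genes on the annotation except the one of mRpL23, in an untranslated exon of mRpL23 itself, and the one of mRpL47, in untranslated exons of its partners CG8176 and Kdm3.

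A reproducible CG8944-eGFP peak lay at 22 of the 73 mitochondrial ribosomal protein genes (30.1%), against 2381 of all 13945 protein-coding genes (17.1%). Among the 3511 strongest entries of single replicates the share was 31.5%, 31.5% and 30.1% for these genes, or 31.1% ± 0.791 (SD, n = 3). The background shares were 16.8%, 16.2% and 17.2%, or 16.8% ± 0.503 (SD, n = 3), so that the shares did not overlap between replicates. The SD covers the spread between embryo collections and not the number of genes. Of the large subunit genes 16 of 47 (34.0%) were occupied, and of the small subunit genes 6 of 26 (23.1%). No test was made between the subunits.

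Each of the 22 peaks was a separate one, so that no peak served a pair of mitochondrial ribosomal protein genes. Their median signal in the reproducible list was 218 with a range of 109 to 1985, and their median rank was 1231. The 1812 reproducible peaks at protein-coding TSSs had a median signal of 184 and a median rank of 1630. Put as a percentile of signal in the reproducible list, where 100% would be the strongest peak, the medians were 65.0% and 53.6%. With the members and ranks of each replicate, the median percentile of the genes described here was 67.5%, 52.6% and 59.6%, and the same over all promoter peaks was not computed within single replicates. The 22 peaks thus spread over nearly the whole reproducible list, with 4 far above the rest.

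mRpS10, whose bacterial counterpart is the small subunit protein S10, had the strongest of these peaks, at rank 8 of the reproducible list with a signal of 1985. It ranked 11, 12 and 5 in replicates 1, 2 and 3, with signals of 619, 675 and 701, and its summit at chr3R:15229508 lay 157 bp upstream of the mRpS10 TSS. The summit was 100 bp from the TSS of the partner Art3, which encodes an arginine methyltransferase. mRpL41, a large subunit protein, followed at rank 12 with a signal of 1855. It ranked 9, 14 and 9 in the replicates, with signals of 633, 596 and 624, and the summit at chr2R:15217763 lay 146 bp upstream. This peak had no protein-coding partner within 500 bp, and the nearest other TSS was that of lncRNA:CR44463 on the same strand, 432 bp from the summit.

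mRpS23 held rank 19 with a signal of 1586. It ranked 18, 20 and 18 in the replicates, with signals of 524, 557 and 506. The summit at chr2L:13835442 lay 370 bp upstream of mRpS23 and 122 bp from the TSS of the partner CenG1A, a GTPase-activating protein for Arf GTPases. mRpL23, whose bacterial counterpart lies at the exit of the nascent peptide tunnel, came next at rank 69 with a signal of 856. It ranked 65, 84 and 61, with signals of 295, 284 and 277. Its summit at chr3L:2373615 was the only one of the 22 downstream of the nearest own TSS, by 63 bp, and lay 113 bp from the TSS of the partner CG9004. For these 4 genes the ranks stayed under 100 in every replicate, whereas no other occupied gene ranked above 291 in any of them.

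The next group of genes had signals of 343 or less in the reproducible list. mRpL34 was at rank 525 with a signal of 343 (725, 649 and 291 in the replicates, with signals of 100.3, 107 and 143). Its summit at chr2R:16098718 lay 230 bp upstream and 154 bp from the TSS of Dg, which encodes dystroglycan. mRpL4 was at rank 815 with a signal of 276 (949, 818 and 753 in the replicates, with signals of 86.5, 96.5 and 90.7). Its summit at chr2L:16329238 lay 106 bp upstream, with no other TSS within 500 bp, although a head-to-head TSS was found 793 bp away from its own. mRpL24 was at rank 869 with a signal of 265 (820, 1380 and 596, with signals of 93.8, 71.3 and 103). Its summit at chr2L:4945548 lay 187 bp upstream and 31 bp from the TSS of betaggt-I, which encodes a subunit of a protein prenyltransferase. Replicate 3 gave the best rank for all 3 of these genes.

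mRpL32 was at rank 969 with a signal of 248 (659, 1333 and 1029 in the replicates, with signals of 106, 72.7 and 76.0). Its product is known in yeast and mouse as a protein that must be cut by a mitochondrial protease before it joins the ribosome. The summit at chr3R:31252749 lay 123 bp upstream and 141 bp from the TSS of qless, which acts in the synthesis of the side chain of coenzyme Q. mRpS2 was at rank 1090 with a signal of 233 (1049, 1411 and 955, with signals of 81.7, 70.3 and 79.0). Its summit at chr2L:4850603 lay 184 bp upstream and 38 bp from the TSS of Mon1, part of the complex that activates the GTPase Rab7. mRpL47, the counterpart of bacterial L29, was at rank 1121 with a signal of 229 (1046, 1217 and 1122, with signals of 81.8, 77.3 and 71.4). Its summit at chr3R:9516009 lay 101 bp upstream and 2 bp past the shared TSS of CG8176 and Kdm3, the second of which encodes a histone demethylase. In these 3 genes replicate 2 gave the lowest standing.

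mRpL53 was at rank 1148 with a signal of 226 (1074, 839 and 1932 in the replicates, with signals of 80.6, 95.2 and 51.8). Its summit at chr2R:13954131 lay 64 bp upstream, in an intron of AGO1, whose product carries microRNAs, and CG33155 shares the TSS of mRpL53 on the same strand. mRpL35 was at rank 1314 with a signal of 210 (1255, 1657 and 1545, with signals of 74.3, 63.4 and 59.7). Its summit at chr3R:22023384 lay 143 bp upstream and 49 bp from the TSS of Mitofilin, which shapes the cristae of the inner membrane. Replicate 3 placed mRpL53 lowest, and replicate 2 placed mRpL35 lowest.

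The ranks of the remaining 10 occupied genes ran from 1346 to 3412, with signals of 206 to 109. They were mRpL18 (partner Taz, a cardiolipin-remodelling acyltransferase), mRpL11 (HtrA2, a mitochondrial serine protease), mRpS7 (Cdk1, the mitotic kinase), mRpL20 (Icmt, a methyltransferase for prenylated proteins), mRpS21 (Droj2, a DnaJ-like chaperone), mRpL37, mRpL17 (Tudor-SN, a nuclease), mRpL21 (rept, a AAA+ ATPase), mRpL13 (CG10602) and mRpS31 (hzg). Most of these ranked among the 3511 strongest entries in all replicates, and 3 did not. mRpL17, at rank 2691 with a signal of 130 and a summit at chr3L:264413, had no entry in replicate 1 and ranked 1972 and 1810 in replicates 2 and 3 with signals of 56.7 and 54.2. mRpL21, at rank 2693 with a signal of 130 and a summit at chr3L:19255280, ranked 2902, 5651 and 1920 with signals of 45.2, 29.7 and 52.1. mRpL13, at rank 3164 with a signal of 116 and a summit at chr2L:18859329, ranked 2291, 2942 and 6389 with signals of 52.0, 42.8 and 24.1. Of the 3, only mRpL17 thus lacked an entry in a replicate, and mRpL21 and mRpL13 each had 1 entry outside the strongest 3511. Which replicates the reproducible call of these peaks rested on was not tested.

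**Figure D1:**
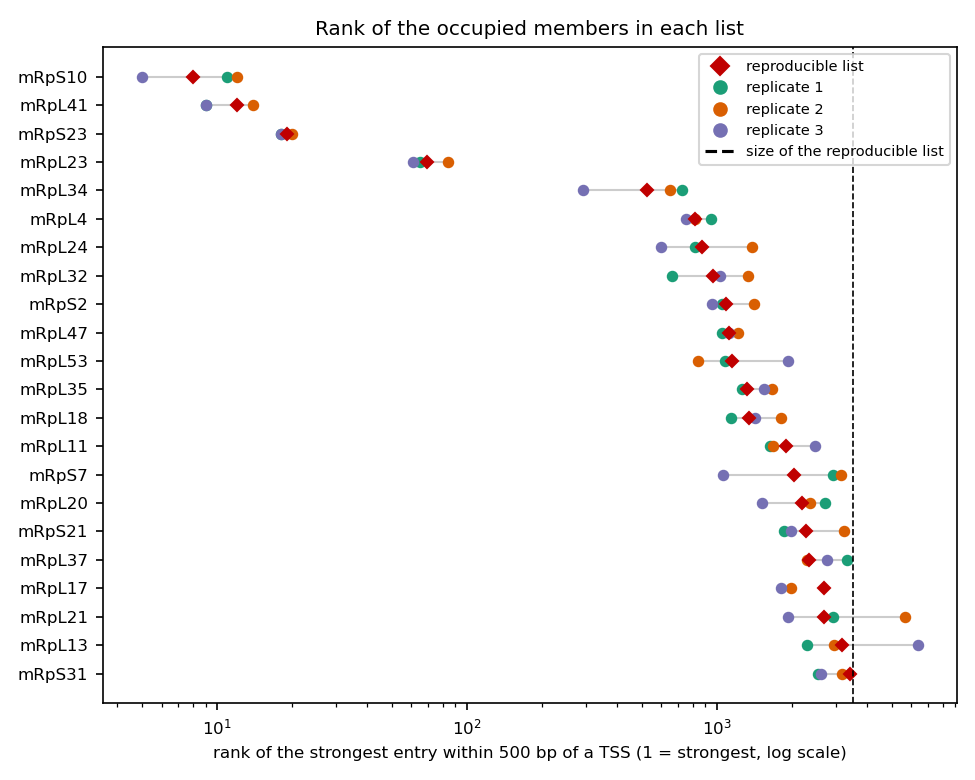
Rank of the strongest entry within 500 bp of a TSS for each of the 22 occupied genes, on a log axis where 1 is the strongest; diamonds are the reproducible list, circles the 3 replicates, and the dashed line marks rank 3511. The points of mRpS10, mRpL41, mRpS23 and mRpL23 lie left of rank 100, and only mRpL21 (5651 in replicate 2) and mRpL13 (6389 in replicate 3) pass the line.

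As the plot of ranks by replicate shows, 19 of the 22 occupied genes were among the strongest entries of all 3 replicates and the other 3 of 2 replicates. High ranks follow in part from the choice of these genes, since the reproducible peaks were drawn from the same 3 replicates. The same share over all occupied protein-coding genes is not given here. The ratio of the highest to the lowest replicate rank had a median of 1.58 over the 21 genes with an entry in every replicate, and ran from 1.11 at mRpS23 to 2.97. Summit positions moved between replicates by a median of 56 bp, from 4 bp at mRpL41 to 179 bp at mRpS31. The strongest peaks, at mRpS10, mRpL41, mRpS23 and mRpL23, moved by 39, 4, 6 and 37 bp, all under the median. The largest movements were at weaker peaks, with 179 bp at mRpS31, 156 bp at mRpL20 and 136 bp at mRpS7. Other weak peaks moved little, as those of mRpS21 and mRpL21 by 8 bp each. A relation of movement to signal was not tested.

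All but 1 of the occupied genes had the summit upstream of the nearest own TSS (21 of 22, 95.5%). Over all occupied protein-coding genes the share was 2108 of 2377 (88.7%), leaving out summits at the TSS itself. Among those whose peak was shared with another protein-coding gene, as for most members, it was 1304 of 1412 (92.35%), near that of the members. The median distance at the members was -151.5 bp (upstream), with quartiles of -221 and -102 bp and a range of -370 to 63 bp. Over all occupied protein-coding genes the median was -117 bp, with quartiles of -212 and -49 bp. Among those with a shared peak it was -121 bp, with quartiles of -212 and -58 bp. In single replicates the medians were -135, -163 and -185 bp, or -161 ± 25.1 bp (SD, n = 3), against -117 ± 3.22 bp (SD, n = 3) for all protein-coding genes. The summits at these genes thus lay farther upstream than the background of all protein-coding genes in every replicate. Medians of shared peaks alone in single replicates are not given here. At the distance limit, the genes just inside it were mRpS23 at 370 bp and mRpL17 at 366 bp, and those just outside were mRpL27, with a summit of signal 108 at 755 bp, and mRpL22, with one of signal 148 at 1604 bp.

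**Figure D2:**
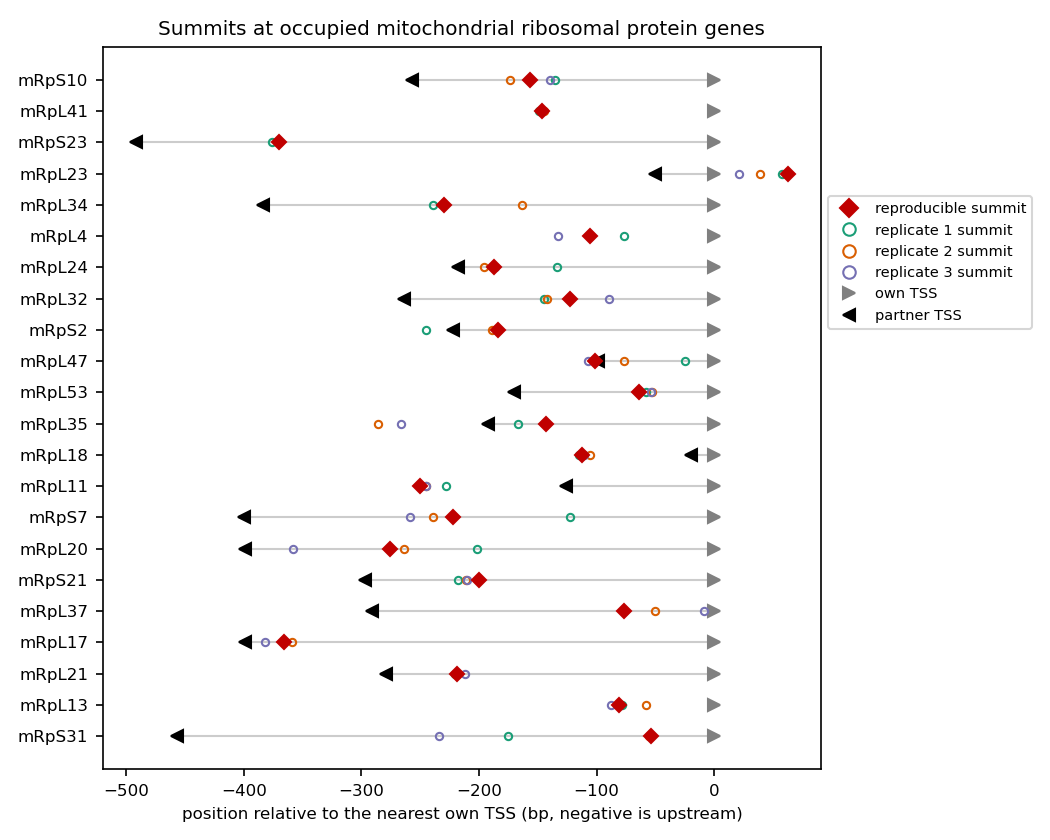
Position of the summits relative to the nearest own TSS (grey triangle at 0, negative values upstream, in bp) for the 22 occupied genes from strongest to weakest; red diamonds are reproducible summits, open circles the 3 replicates, and black triangles the TSS of the head-to-head partner, where that TSS lies within 500 bp of the summit. Of the 19 pairs drawn, 15 have the red diamond between the pair of TSSs.

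Peaks at these genes were mostly shared with a neighbour. A further protein-coding TSS lay within 500 bp of the summit at 20 of 22 genes (90.9%). This was against 1413 of 2381 occupied protein-coding genes (59.3%). The partner was head-to-head in 19 of the 20 and in 1340 of the 1413. In single replicates the shared part was 91.2% ± 0.228, against 59.0% ± 1.18 for all protein-coding genes (SD, n = 3 each). These backgrounds are not matched for arrangement, as 21 of the 22 but 1585 of the 2381 had a head-to-head TSS within 1000 bp. Among genes with such a TSS, a head-to-head partner was at the peak of 19 of 21 and of 1340 of 1585. Those shares were near each other, and sharing is not read as particular to the genes described here. In the 19 head-to-head pairs the summit lay between both TSSs in 15 (78.9%), against 1164 of 1340 such genes in all (86.9%). The pairs with the summit outside were those of mRpL11, mRpL18, mRpL23 and mRpL47. At mRpL11 and mRpL18 it lay in an untranslated exon of the partner, HtrA2 and Taz.

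Within the pairs, the summit was more often closer to the partner than to the mitochondrial ribosomal protein gene. This held in 14 of 19 pairs (73.7%), against 665 of 1340 (49.6%) among all, where each pair is seen from both of its genes and a share near 50% follows from the counting. The median distance was 184 bp to the own TSS and 106 bp to the partner TSS. The 5 exceptions were mRpL23, mRpL32, mRpL37, mRpL53 and mRpS31, with the summit 63, 123, 77, 64 and 54 bp from the own TSS. Among all 20 shared peaks the mitochondrial ribosomal protein gene had the nearest TSS, or a tie for it, in 6 (30%), against 729 of 1413 (51.6%). In single replicates this was 42.9%, 33.3% and 25%, or 33.7% ± 8.94, against 51.5% ± 0.113 (SD, n = 3 each). Background shares near 50% again follow largely from counting each peak from all of its genes. The SD of 0.113 is therefore not read as a spread between embryo collections. The ties were mRpL13 with CG10602 and mRpL53 with CG33155, which start at the same base on the same strand. The lists give no transcription, so which gene of a pair a peak acts on cannot be read from them.

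The arrangement of the promoters moved with occupancy. A head-to-head protein-coding TSS within 1000 bp was present at 58 of the 73 mitochondrial ribosomal protein genes (79.5%) and at 5052 of 13945 protein-coding genes (36.2%). The genes were also short, with a median length of 909 bp against 2166 bp. Of the genes with such a neighbour 21 of 58 (36.2%) were occupied, against 31.4% of protein-coding genes with one. Of those without it 1 of 15 (6.67%) was occupied, mRpL13, against 8.95% of protein-coding genes without one. In single replicates the first share was 37.9% in each, against 30.7% ± 0.843, and the second was 4.44% ± 3.85 against 8.85% ± 0.417 (SD, n = 3 each). The first lay above its background in every replicate, by few genes, and the second under it. Both shares of reproducible peaks were near their background, and neither is read as a result about these genes.

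The shares were also near the background at each gap that held more than 5 genes. With a gap of 0 to 200 bp between the TSSs 6 of 22 genes (27.3%) were occupied, against 29.3% of protein-coding genes, and with 201 to 500 bp 13 of 31 (41.9%) against 38.7%. At 501 to 1000 bp it was 2 of 5, mRpL41 and mRpL4, against 20.3%. When a summit was counted only for the gene with the nearest TSS, 8 of 73 genes (10.96%) were occupied, against 12.5% of protein-coding genes. They were mRpL41, mRpL23, mRpL4, mRpL32, mRpL37 and mRpS31, with mRpL13 and mRpL53 by ties. In single replicates the values were 13.2% ± 2.09 and 12.3% ± 0.377 (SD, n = 3 each), so that these shares did not differ beyond the spread. The split by arrangement was chosen after seeing that most peaks were shared.

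**Figure D3:**
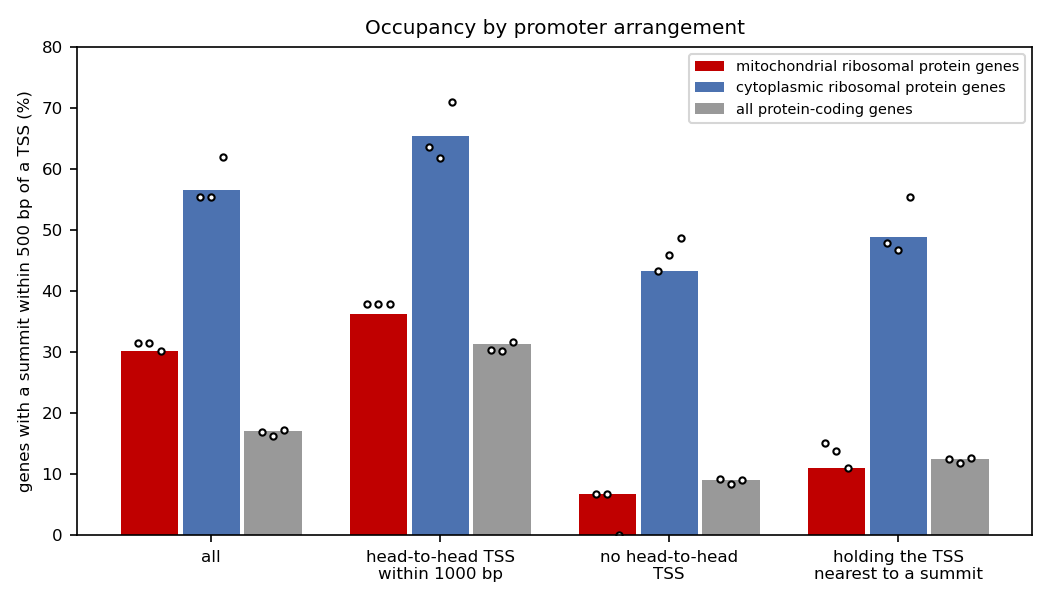
Percent of genes with a reproducible summit within 500 bp of a TSS (bars) and the same among the 3511 strongest entries of each replicate (open points, replicates 1 to 3 from left to right), for all genes, for genes with and without a head-to-head TSS within 1000 bp, and counting a summit only for the gene with the nearest TSS. The red bars of the mitochondrial ribosomal protein genes stand at 30.1% against 17.1% (grey, all protein-coding genes) on the left and at 36.2% against 31.4%, 6.67% against 8.95% and 10.96% against 12.5% in the other groups.

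Occupied genes were found on the autosomal arms. They were 6 of 12 on 2L (50%, against 16.9% of protein-coding genes there), 4 of 12 on 2R (33.3% against 15.7%), 5 of 17 on 3L (29.4% against 17.6%) and 7 of 21 on 3R (33.3% against 18.9%). The backgrounds by arm are not matched for a head-to-head TSS, so these shares are not read as a result about the members. None of the 11 genes on X was occupied (mRpS25, mRpS30, mRpL3, mRpL16, mRpL22, mRpL14, mRpL30, mRpL33, mRpL38, mRpL49 and mRpS14), whereas 347 of 2196 protein-coding genes there (15.8%) were. In the relaxed pooled list 5 of the 11 (45.5%) had an entry, against 45.3% of protein-coding genes on X, and mRpS25 was among the strongest entries of replicate 2, at rank 3259. With 11 genes, the difference in the reproducible list was not tested.

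The relaxed pooled list held an entry within 500 bp of a TSS at 53 of the 73 genes (72.6%), against 45.0% of protein-coding genes. This background is not matched for a head-to-head TSS, and the share among genes with one is not given here for the relaxed list. The difference is therefore not read as particular to these genes. For 31 genes the pooled list had an entry and the reproducible list did not, at pooled ranks of 3593 to 22489 with a median of 7653, whereas the median for all protein-coding genes in this position was 9606. The strongest of them were mRpS6 (rank 3593, signal 105), mRpS16 (rank 3605, signal 105) and mRpL54 (rank 3963, signal 97.8). They came just after the weakest occupied gene, mRpS31 (rank 3412, signal 109). Each occupied gene had the same rank and signal in the pooled list as in the reproducible list. Over all protein-coding genes, reproducible promoter peaks ended at rank 3508, and genes with a pooled entry only began at rank 3513. The line between occupied and unoccupied genes is thus in effect a cut by signal in 1 sorted list. The smooth run of signals across it is not read as a result about these genes. Among the replicates, mRpS6 ranked 3801, 2493 and 8459, mRpS16 ranked 4109, 3780 and 5826, and mRpL54 ranked 3201, 10902 and 4002.

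The other 28 genes with a pooled entry only were mRpL42, mRpS24, mRpS25, mRpS18A, mRpL10, mRpS11, mRpL12, mRpL51, mRpS22, mRpS30, mRpS26, mRpL1, mRpL28, mRpS17, mRpS18C, mRpL48, mRpL36, mRpL19, mRpL43, mRpL50, mRpS28, mRpL3, mRpL55, mRpL16, mRpL52, mRpL22, mRpS29 and mRpS5. In all, 5 unoccupied genes were among the strongest entries of 1 replicate (mRpS6, mRpL54, mRpS25, mRpS11 and mRpS17) and 46 of none. The same counts over all unoccupied protein-coding genes are not given here. Entries in replicate lists alone were found at mRpL14, mRpL15, mRpL2, mRpL27, mRpL44, mRpL9 and mRpS9, at ranks from 8073 to 25561. No entry in any list was found at mRpL30, mRpL33, mRpL38, mRpL39, mRpL40, mRpL45, mRpL46, mRpL49, mRpS14, mRpS18B, mRpS33, mRpS34 and mRpS35. Replicates 1, 2 and 3 held any entry at 72.6%, 57.5% and 76.7% of the members, against 49.9%, 44.95% and 46.6% of all protein-coding genes. These backgrounds are not matched for a head-to-head TSS. The absence of an entry cannot be read as no binding, since the lists of replicates 1 and 2 stop at 30000 entries.

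**Figure D4:**
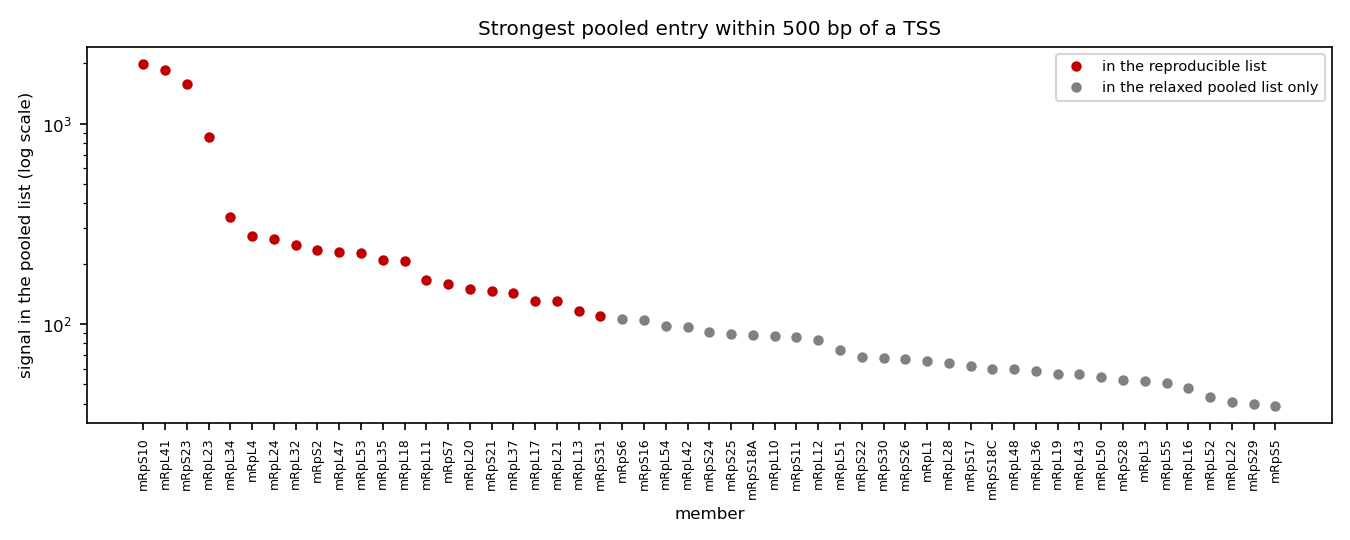
Signal of the strongest entry within 500 bp of a TSS in the relaxed pooled list, on a log axis, for the 53 genes with an entry, ordered by signal; red points are genes in the reproducible list and grey points those in the relaxed list only. The values fall from 1985 at mRpS10 to 109 at mRpS31 in red and run on without a gap from 105 at mRpS6 in grey. The red genes have the same signals in both lists, so the order of the colours follows from a cut by signal.

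Sequence around the summits was compared with that of the 1790 other reproducible promoter peaks, in windows of 101 bp and on both strands. The median share of G and C was 33.7% at the member summits, from 15.8% at mRpL20 to 57.4% at mRpL53. It was 37.6% at the other promoter peaks, 35.6% at all reproducible peaks and 47.5% at the 19963 weaker pooled entries. The DNA replication-related element, TATCGATA, which many fly housekeeping promoters carry, was at 0 of 22 member summits against 4.47% of the other promoter peaks. Its core CGATA was at 3 (13.6%; mRpL34, mRpL47 and mRpL17) against 25.5%, and all 3 had the longer TCGATA, which 13.7% of the others held. Within 100 bp of the summit CGATA was at 11 of 22 (50%) against 42.6%, so that the count depended on the width of the window.

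Other motifs were at few summits. Ohler motif 7, a core promoter element of fly housekeeping genes, was at 4 (18.2%; mRpL47, mRpL37, mRpL17 and mRpL21) against 6.98%. CAGCTG, the E-box, was at 3 (13.6%; mRpL24, mRpL18 and mRpL11) against 6.15%, and Ohler motif 6 was at 1 (mRpL41) against 0.615%. CTTT with a pair of pyrimidines on each side, a pattern found at ribosomal protein gene starts, was at 1 (mRpL32) against 8.99%. GAGAG was at 0 against 9.33%, CACGTG at 0 against 1.40%, GCGCATGC at 0 against 0.335%, and Ohler motif 1 at 0 against 1.06%. These counts depended on the window too. Within 100 bp GAGAG was at 5 of 22 (22.7%) against 20.6%, CAGCTG at 6 (27.3%) against 12.9% and Ohler motif 7 at 5 (22.7%) against 13.5%, whereas within 25 bp all 3 were at 0 member summits, against 4.25%, 2.79% and 3.13%. A missing match says only that these letters were not in the window.

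A set of 4 further 6-mers was taken from the other reproducible peaks, as those with the greatest ratio of their share to that in the weaker pooled entries, without use of the member peaks. TTAAAA, which reads as TTTTAA on the other strand, was at 8 member summits (36.4%) against 28.2% of the other promoter peaks and 11.3% of the weaker entries, among them mRpS10, mRpL41, mRpL23 and mRpL4. TTTAAA was at 5 (22.7%) against 16.9% and 6.69%, CTTAAA at 5 (22.7%) against 14.2% and 6.21%, and TCTTAA at 4 (18.2%) against 9.33% and 4.13%. These words overlap each other, as in the run of capitals printed for mRpL32, and share their high content of A and T with the peaks as a whole. The members were thus near the other promoter peaks in these words, and mRpS23, at rank 19, held none of them.

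Genes with related roles gave both like and unlike values. Cytoplasmic ribosomal protein genes, whose products form the ribosomes of the cytoplasm, were occupied at 52 of 92 (56.5%). With a head-to-head TSS it was 36 of 55 (65.5%), without one 16 of 37 (43.2%), and by the nearest TSS 45 of 92 (48.9%), so that the occupancy of these genes was over the background in each arrangement. In single replicates their shares were 57.6% ± 3.77 in all and 50% ± 4.74 by the nearest TSS (SD, n = 3 each), above those of the mitochondrial ribosomal protein genes in every replicate. Their summits lay nearer to the TSS, with a median of -54 bp, and in single replicates at -46.0 ± 14.8 bp against -161 ± 25.1 bp (SD, n = 3 each). Genes of the respiratory chain and ATP synthase, which work with the proteins that mitochondrial ribosomes make, were occupied at 15 of 88 (17.0% against 17.1%), with 13 of 44 (29.5% against 31.4%) among those with a head-to-head TSS and 2 of 44 (4.55% against 8.95%) among the others. These shares were near or under the background. A shared peak was found at 13 of the 15 (86.7%), close to the 90.9% of the mitochondrial ribosomal protein genes, and at 28 of 52 occupied cytoplasmic ribosomal protein genes (53.8%).

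The remaining genes of mitochondrial gene expression were mixed, against the 17.1% of all protein-coding genes. Of 3 mitochondrial ribosomal proteins with other symbols, CRIF was occupied (rank 1426), and tko and bonsai were not. None of 9 translation factors, 3 of them with a head-to-head TSS, was occupied (mEFTu1, mEFTu2, mEFTs, mEFG1, mIF2, mIF3, mRF1, mRRF1 and mRRF2). Of 16 listed as aminoacyl-tRNA synthetases, 7 with a head-to-head TSS, LeuRS-m (rank 1760) and ArgRS-m (rank 1945) were (12.5%). Of 17 factors for mitochondrial DNA and RNA 7 were occupied (41.2%), and 11 of the 17 had a head-to-head TSS, an arrangement with a background of 31.4%. They were PNPase, an exoribonuclease (rank 14, signal 1804), SLIRP2 and SLIRP1, RNA-binding proteins (ranks 56 and 1424), mtSSB, which binds single-stranded DNA (rank 299), PolrMT, the mitochondrial RNA polymerase (rank 1709), PolG2, a subunit of the DNA polymerase (rank 2000), and mTerf5 (rank 2929). PNPase, with ranks of 16, 11 and 12 in the replicates, stood between mRpL41 and mRpS23 in the reproducible list.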

How the data were processed

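ChIP-seq peaks of 3 replicates of 1 group were analysed. Per the deposited file listing, the authors called relaxed lists of peaks and background on each replicate and on the pool against a control alignment, and filtered them by an irreproducible discovery rate threshold. Which aligner, peak caller and cutoff were used is not given in the sources used here. The deposited score per entry is the authors' signal value. The sequencing depth is unknown, and lists on dm3 and control libraries were not used here. Peaks were assigned with Python 3.11.15, pandas 2.3.3 and numpy 2.4.6 to every gene of Ensembl BDGP6.54 (release 115) with a TSS within 500 bp of the summit. All protein-coding genes and peaks lay within the arms of the dm6 genome. Sequences were read from RefSeq's dm6 genome. Coordinates are 1-based. The assignment of a summit to a TSS was tested on simulated data with genes set far apart. Shared peaks and ties were therefore not part of that test.

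There was no comparison between conditions, so counts and medians are given beside the same over all protein-coding genes, with no test. The members, gene lists and motifs were chosen with earlier results of these data known. Full values are given for the 12 occupied genes with the highest signal and for those among the strongest entries of fewer than 3 replicates; all other members are named. Occupied genes of the other lists are named too. The partner of 1 member is not reported here. Listed names mEFG2 and Twinkle were not found in the annotation. Alternatives were TSS windows of 200 and 1000 bp, a TSS inside a peak, canonical TSSs, the peaks above the median signal, the nearest TSS only, other partner rules, replicate signals, sequence windows of 25 and 100 bp, and leaving out each replicate.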

Additional observations from a re-analysis of the deposited data

How the results depend on the processing

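No paired analysis was possible because the samples form 1 group. The main counts were 22 members and 17.1% of protein-coding genes occupied. With a window of 200 bp 15 members and 12.3% were occupied, with 1000 bp 23 (mRpL27 added) and 19.7%, with canonical TSSs 22 and 15.0%, with the TSS inside a peak 13 and 11.2%, with the peaks above the median signal 13 and 9.68%, and with the nearest TSS only 8 and 12.5%; in the last setting the members' share fell under the background, and the cause was not tested. Without 1 replicate at a time 20 members stayed each time (mRpL13, mRpL17 and mRpL21 were lost in pairs) and 13.5% to 13.7% of protein-coding genes. The members lost were each time those not among the strongest entries of a remaining replicate, and none was gained. The member values without 1 replicate thus follow from the replicate ranks given above. They cannot show how the reproducible list would change if it were made from fewer replicates. The share upstream was 93.3% at 200 bp, 91.3% at 1000 bp, 92.3% for the stronger peaks and 95% without any 1 replicate. The median position was -112 bp at 200 bp, where distant summits are left out by construction. Among the stronger peaks 11 of the 13 occupied members had a shared peak, and the background share in this setting is not given here. The median percentile of signal was 54.1% by the signal of replicate 2. With 1 mismatch allowed TATCGATA was at 1 member summit, against 13.0% of the other promoter peaks, and CGATA was at 11 within 100 bp. The other 31 values stayed within the spread between replicates or within 1.5 times the main count. The lists hold no read counts, so weak sites at the end of a list cannot be told from missed ones.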
